A study of Mus musculus with 200 samples.

Results

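Of 6853 autosomal genes with enough allele-informative reads in mouse F1 embryos, 57 met a rule for expression mostly from the CAST/EiJ (Cast) allele. These genes were chosen by the F1 embryos' own reads, and the name states the rule. Some of the 57 shared their reads with another gene, and for some the backcross embryos described below did not bear the name out. A gene had to have at least 200 votes summed over each of the reciprocal crosses between C57BL/6J (B6) and Cast, and a B6 allele fraction (BAF) of 0.20 or less in both of them. A vote is a read that covers a single nucleotide polymorphism (SNP) and carries the B6 or the Cast base, shared out over the SNPs where a read covers several, and the BAF is the share of B6 votes among both kinds, so that 0.5 means equal output from the alleles. Before symbols of large families (ribosomal proteins, proteasome and respiratory chain subunits, histones, zinc fingers, histocompatibility genes, collagens and a few others) were left out, 69 of 7209 genes met both limits, and 12 of those were removed by name.

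When the alleles of a gene sit in the same nucleus they share every diffusible regulator, so a lasting difference between them marks sequence on the same chromosome copy that acts in cis: a promoter or enhancer, a splice or polyadenylation site, or a stretch that sets the stability of the transcript. A parent-of-origin effect, as at an imprinted gene, follows the mother or the father instead of the strain, and it turns around when the cross is reversed. A backcross adds a further view, since embryos with a Cast allele can be set beside littermates that carry only B6 alleles. Total expression of the gene can then be compared, with alleles read only to call the genotypes. Both views can also be touched by mapping, because a read with many differences from a reference genome may be lost or may land on a related gene.

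The samples were single whole embryos from embryonic day 11.5, freed of membranes and placenta and profiled by 3SEQ, an RNA-seq method that reads the 3′ ends of polyadenylated transcripts. The F1 generation held 8 B6 × Cast embryos, the mother being written first, and 8 from the reverse mating, Cast × B6, each set from 2 litters. The second backcross generation (N2) comprised 154 genotyped embryos, 89 with a B6 mother and an F1 father and 65 with an F1 mother and a B6 father. Every F1 parent came from a B6 female and a Cast male, so each N2 embryo was either B6/B6 or B6/Cast at an autosomal gene and none was Cast/Cast. No agent was given and no transgene was involved; the strains were inbred, and CAST/EiJ is wild-derived. The labeled F1 crosses differed in stage, with 48 to 63 somites in the 7 B6 × Cast embryos that had a count and 41 to 48 in 6 Cast × B6 embryos.

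F1 embryos had 15703888 to 38234229 reads assigned to genes. N2 embryos were sequenced less deeply, at 245220 to 5370322 such reads, with 13 of them under 1000000. Markers of blood, nervous system, muscle, liver and mesenchyme were read in all 154 N2 embryos, and the lens crystallin *Cryaa* in 152. The placental genes *Prl3d1*, *Prl2c2* and *Ctsq* were at 0 in every embryo, while *Prl3b1* was read in 23, *Tpbpa* in 14 and *Psg23* in 1. Across all autosomal genes, Cast votes made up 0.194% of votes where an N2 embryo was genotyped B6/B6 and 50.0% where it was B6/Cast.

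The F1 values below chose the genes and are given as a description. The 57 genes had between 526.5 and 1096550 votes over the 16 F1 embryos, with a median of 2382. Their median BAF was 0.134, against 0.499 over the 6853 genes. It lay under 0.05 in 15 genes, between 0.05 and 0.15 in 21 and over 0.15 in 21. The BAFs of the reciprocal crosses differed by a median of 0.0190 and by at most 0.0777, the rule itself requiring a low fraction in both. In 52 of the 57 genes, every F1 embryo with a vote had a BAF under 0.5. The genes were less abundant than the rest, with a median of 17.1 reads per 1000000 reads on genes (RPM) over the F1 embryos against 31.5 for all 6853. Just inside the limit were *Zdhhc1* (0.1996 in its higher cross), *Wdr12* (0.1991) and *Gm10190* (0.1989), and just outside it were *Gas1* (0.201), *Slc7a10* (0.202) and *Ddx50* (0.202).

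**Figure D1:**
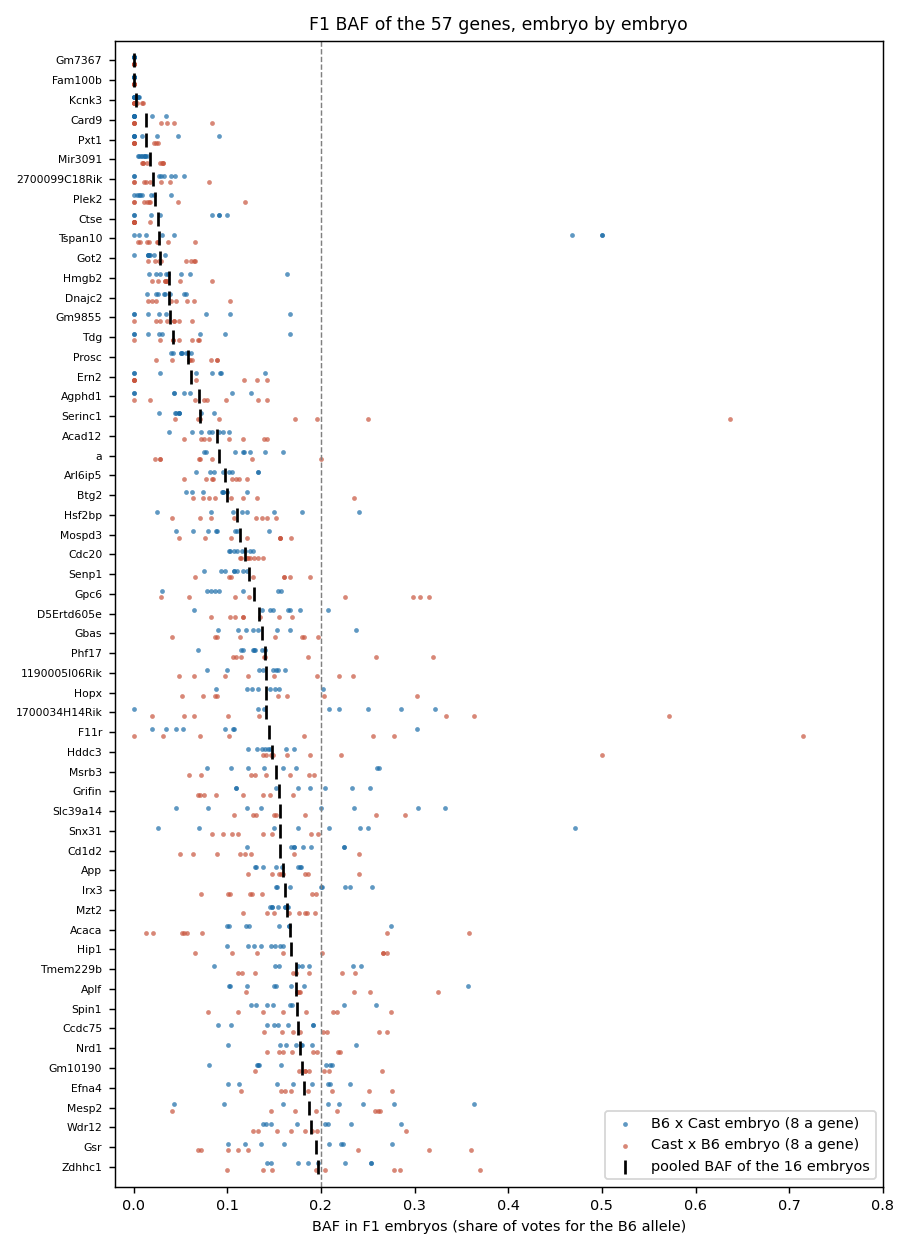
BAF of the 57 genes (x axis, share of votes for the B6 allele, no unit) in each F1 embryo, with 1 blue point per B6 × Cast embryo, 1 red point per Cast × B6 embryo and a black bar for the pooled BAF of all 16 embryos; the dashed line is the limit of 0.20. Points of both crosses lie around the same bar, and the points at or above 0.5 belong to *Tspan10*, *Serinc1*, *Hddc3*, *F11r* and *1700034H14Rik*.

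The lowest fractions were found in genes of very different abundance. *Fam100b* and *Gm7367* had no B6 vote among 2382. Their 6733 reads in B6/B6 N2 embryos carried no vote at all, so their BAF does not measure the B6 allele. *Kcnk3*, which encodes a background potassium channel, had a BAF between 0 and 0.0104 in all 16 embryos. *Card9*, an adaptor protein of innate immune signaling, ranged from 0 to 0.0345 in B6 × Cast embryos and from 0 to 0.0833 in Cast × B6 embryos, and *Pxt1*, a gene named for its testis expression, from 0 to 0.0908 and from 0 to 0.0256. *Plek2*, a pleckstrin homology protein of the membrane skeleton, had a median of 0.00787 among B6 × Cast embryos and of 0.0157 among Cast × B6 embryos. *Got2*, the mitochondrial aspartate aminotransferase, had medians of 0.0163 and 0.0427. At the other end of abundance, *Mzt2*, a small protein of the gamma-tubulin ring complex from which microtubules grow, had 53387.5 votes and ranged only from 0.145 to 0.165 in B6 × Cast embryos and from 0.117 to 0.194 in Cast × B6 embryos. *Cdc20*, the activator of the anaphase-promoting complex, had 33081 votes and lay between 0.102 and 0.138 in every embryo.

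Several of the 57 rows shared their reads. The Cast votes of *Fam100b* and *Gm7367* were equal in 16 of 16 F1 embryos, and those of *Tdg*, a thymine DNA glycosylase, and *Gm9855* in 9 of 16, so each pair counts as 1 source of reads. The votes listed for *Mir3091* differed from those of *Rps21*, a ribosomal protein gene, by a median of 0.170%, and RefSeq places the miRNA hairpin inside *Rps21*. Its 1235319 F1 reads therefore describe the host's transcript and give no level for the miRNA, and *Rps21* itself was among the names left out.

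The N2 embryos tested the same fraction in reads that the choice did not use. In 54 of the 57 genes there were enough votes in heterozygous embryos for a paired test of B6 against Cast votes within each embryo, scaled to its depth, and the Cast allele was higher in 47 of them at a Bonferroni-adjusted p under 0.01 with a pooled BAF under 0.45. Over all autosomal genes tested, 722 of 9215 were called higher from the Cast allele, 7.84%. The median N2 BAF of the 57 genes was 0.134, the same as in F1. It was above the F1 BAF in 31 of 57 genes, within 0.05 of it in 33, and over 0.20 in 13. Of the 7 genes that were not called none leaned toward B6, their pooled N2 BAFs running from 0.239 to 0.442. Genotypes had been called by the authors from the same votes and smoothed along each chromosome, so a gene's own votes had some part in its genotype.

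**Figure D2:**
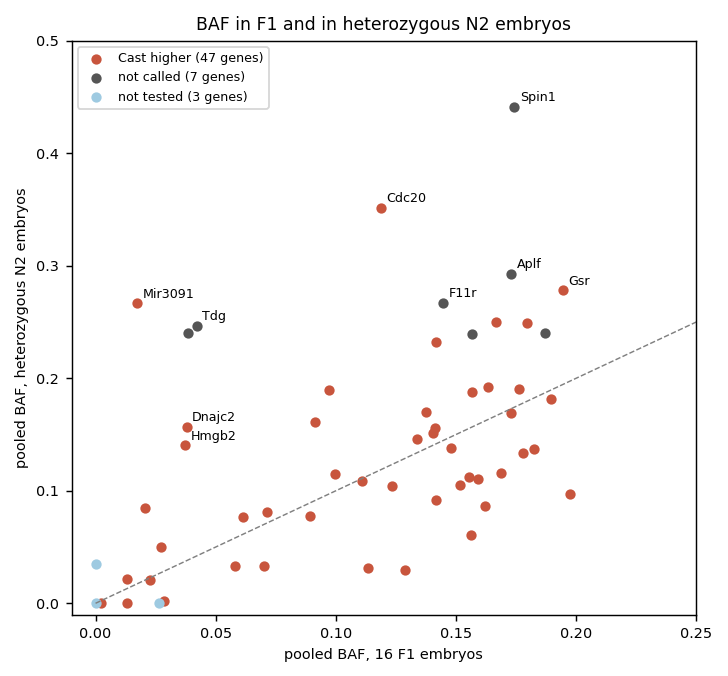
Pooled BAF of the 57 genes in the 16 F1 embryos (x axis) and in the N2 embryos heterozygous at the gene (y axis), both as the share of votes for the B6 allele; red points passed the paired test for a higher Cast allele, gray points did not and light blue points had too few votes. Most points lie near the dashed line of equality, and *Spin1*, *Cdc20*, *Mir3091* and *Tdg* lie far above it.

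A rise of 0.1 or more from the F1 to the N2 BAF occurred in 9 genes, and no gene fell by as much. *Spin1*, a reader of modified histone tails, went from 0.174 to 0.442 and was not called (adjusted p = 1). *Cdc20* went from 0.119 to 0.352 and was still called higher from Cast (adjusted p = 3.01e-27, 77 embryos). The shared reads of *Mir3091* went from 0.017 to 0.267. *Tdg* went from 0.042 to 0.247 on only 77 N2 votes (adjusted p = 1) and *Gm9855* from 0.038 to 0.240 on 75 (adjusted p = 1). *Dnajc2*, a chaperone bound to ribosomes, moved from 0.038 to 0.157 and *Hmgb2*, a DNA-bending chromatin protein, from 0.037 to 0.141. The F1 reads had been shortened before mapping and the N2 reads had not, and the part of read length in these differences was not tested. The remaining genes tested without a call were *F11r*, a tight-junction adhesion molecule (BAF 0.267 on 101 votes), *Cd1d2*, a lipid-antigen presenting molecule (0.239 on 162 votes), *Aplf*, a factor of DNA end joining (0.293 on 340 votes), and *Mesp2*, a transcription factor of somite segmentation (0.240 on 125 votes).

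The dose effect was then measured in total reads, between genotypes that the authors had called from allele votes. A gene's log2(RPM + 1) was compared between N2 embryos that were B6/Cast and those that were B6/B6 at that gene, after removal of lane, sex, somite number and 15 principal components. Of the 39 genes whose mean reached 5 RPM, 29 were higher in the embryos with a Cast allele (rank-sum test, Benjamini-Hochberg adjusted p under 0.01), 10 did not pass and none was lower. The mean covered embryos of both genotypes. *Plek2*, *Acad12*, *Zdhhc1*, *Got2*, *Hopx*, *Msrb3* and *Slc39a14* reached it only through their B6/Cast embryos. Their B6/B6 means ran from 1.89 RPM (*Plek2*) to 4.35 RPM (*Got2*), so they entered the test through the group where they were high. Over all 9733 autosomal genes tested, 14.9% were higher and 14.2% were lower in B6/Cast embryos. The median log2 difference of the 39 genes was 0.55, against 0.00 over all genes, whose central 90% ran from -0.32 to 0.36. Among the 29 genes called, 14 had a difference of 1 or more on the log2 scale, 6 lay from 0.5 to 1 and 9 under 0.5. The other 18 genes were too scarce for this test, and the unweighted mean RPM was higher in the B6/Cast embryos for all 18, although for *Tdg* and *Gm9855* the RPM of the pooled reads was slightly lower there. Within the first sequencing flowcell 26 of 36 genes were higher, beside 11.7% of all genes, and within the second 28 of 40, beside 7.50%, with medians of 0.60 and 0.61.

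**Figure D3:**
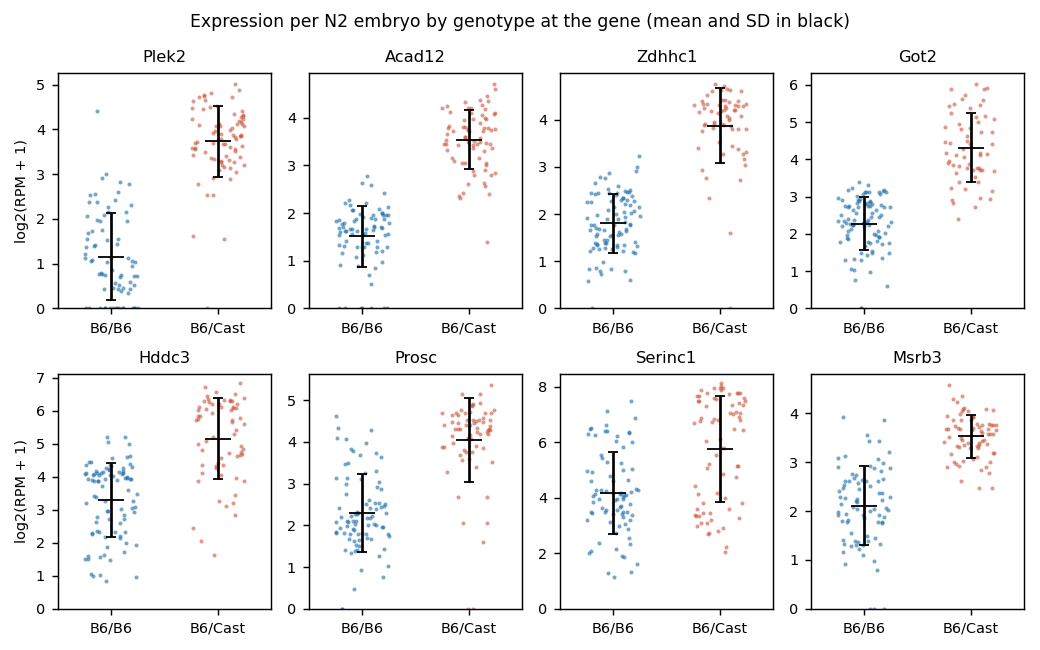
Expression of the 8 genes with the largest dose effect in single N2 embryos, as log2(RPM + 1) on the y axis, for embryos that were B6/B6 (blue) or B6/Cast (red) at the gene; black marks are the mean and SD. For *Acad12*, *Zdhhc1* and *Got2* most B6/Cast embryos lie above every B6/B6 embryo, while those of *Serinc1* and *Hddc3* spread widely in both genotypes.

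The largest dose effect over all embryos belonged to *Plek2* (chromosome 12, 79989678 to 80007951 on the minus strand, mm9). In 76 B6/B6 embryos it ran from 0 through a median of 1.06 to 20.1 RPM, and in 78 B6/Cast embryos from 0 through 13.0 to 31.1 RPM. The ranges overlapped, but 77 of 78 B6/Cast embryos lay above the B6/B6 median. The log2 difference was 2.70 ± 0.10 (SE), a 6.51-fold change on the log2(RPM + 1) scale (adjusted p = 3.28e-22). Its size depended on the pseudocount, with a log2 difference of 3.49 at 0.25 RPM and 1.68 at 4 RPM. *Acad12*, of the acyl-CoA dehydrogenase family that opens fatty acid oxidation (chromosome 5, 122048293 to 122068947, minus strand), ran from 0 through 2.11 to 5.83 RPM in B6/B6 and from 1.63 through 11.1 to 24.9 RPM in B6/Cast embryos, with 66 of 74 B6/Cast embryos above every B6/B6 embryo and a difference of 2.08 ± 0.10. *Zdhhc1*, a palmitoyltransferase (chromosome 8, 107996325 to 108008330, minus strand), ran from 0 through 2.40 to 8.41 RPM against 0 through 16.3 to 25.8 RPM, with 54 of 62 B6/Cast embryos above every B6/B6 embryo and a difference of 1.99 ± 0.09. *Got2* (chromosome 8, 98388034 to 98412447, minus strand) ran from 0 through 4.03 to 9.44 RPM against 4.29 through 17.0 to 63.4 RPM, with 50 of 60 B6/Cast embryos above every B6/B6 embryo and a difference of 1.88 ± 0.12. The difference of *Got2* was 0.85 within the first flowcell and 2.69 within the second, where *Acad12* (2.52) and *Got2* both exceeded *Plek2* (2.28).

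The 200 bases upstream of the annotated start of *Plek2*, *Acad12* and *Zdhhc1* are shown because their promoters lie beside large dose effects. They are reference (B6) sequence of mm9, read 5′ to 3′ on the gene's own strand, and capitals mark the GC box core GGGCGG.
*Plek2*, chr12:80007952-80008151: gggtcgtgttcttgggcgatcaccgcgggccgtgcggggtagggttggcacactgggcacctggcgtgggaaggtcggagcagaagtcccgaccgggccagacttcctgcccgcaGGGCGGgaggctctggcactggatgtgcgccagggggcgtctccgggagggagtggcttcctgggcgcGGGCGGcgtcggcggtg
*Acad12*, chr5:122068948-122069147: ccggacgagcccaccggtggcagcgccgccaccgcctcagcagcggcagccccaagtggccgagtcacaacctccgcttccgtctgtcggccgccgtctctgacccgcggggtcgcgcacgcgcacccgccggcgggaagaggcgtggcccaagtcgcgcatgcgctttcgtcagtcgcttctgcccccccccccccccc
*Zdhhc1*, chr8:108008331-108008530: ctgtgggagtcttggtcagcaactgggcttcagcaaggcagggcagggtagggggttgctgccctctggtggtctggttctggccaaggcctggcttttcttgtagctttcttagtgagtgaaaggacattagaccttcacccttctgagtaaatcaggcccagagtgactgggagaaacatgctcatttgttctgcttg
The windows differed in base composition. Those of *Plek2* and *Acad12* were 73% and 75.5% G or C, and that of *Zdhhc1* was 53% with no CpG. Searched on both strands, GGGCGG was found in 50% of the 52 windows of genes with mm9 coordinates and in 56.6% of 6740 windows of the genes with enough votes, CCAAT in 38.5% and 30.5%, the E-box CACGTG in 9.62% and 7.57%, and TATAAA in 1.92% and 4.33%. The median share of G or C was 59.2% and 61%. A match describes letters only, and the Cast sequence of these windows was not used here.

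Further metabolic enzymes were among the genes called. *Acaca*, acetyl-CoA carboxylase, which commits carbon to fatty acid synthesis, ran from 0 through 7.28 to 90.5 RPM in B6/B6 and from 0 through 18.9 to 117 RPM in B6/Cast embryos, and rose by 1.27 ± 0.10 on the log2 scale. *Gsr*, glutathione reductase, rose by 1.01 ± 0.11 and *Msrb3*, which repairs oxidized methionine, by 1.38 ± 0.09. *Prosc*, a pyridoxal phosphate binding protein, ran from 0 through 3.41 to 23.5 RPM in B6/B6 and from 0 through 18.8 to 40.4 RPM in B6/Cast embryos (log2 difference 1.81 ± 0.09), and *Hddc3*, of the HD domain phosphohydrolases, from 0.802 through 13.6 to 36.1 RPM and from 2.06 through 47.1 to 113 RPM (1.87 ± 0.07). Within the first and second flowcell the difference of *Prosc* was 2.44 and 1.22. In *Prosc* 17 of 68 and in *Hddc3* 35 of 65 B6/Cast embryos exceeded every B6/B6 embryo. *Agphd1*, a hydroxylysine kinase, was under 5 RPM on average, and at a limit of 1 RPM it was higher by 1.34 ± 0.11 (adjusted p = 3.18e-15).

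Genes of membranes and the cell surface made up a further share of the 29. *Serinc1*, a multipass membrane protein, ran from 1.24 through 15.8 to 180 RPM in B6/B6 and from 3.12 through 87.8 to 280.1 RPM in B6/Cast embryos, and its difference of 1.73 ± 0.15 had the largest standard error of the genes called. Its level also moved with the flowcell, with medians of 10.7 and 34.5 RPM in B6/B6 embryos of the first and second flowcell and 169 and 86.3 RPM in B6/Cast embryos. Within the first and second flowcell its log2 difference was 2.28 and 0.97. *Hip1*, a clathrin adaptor, rose by 1.19 ± 0.05, and *Slc39a14*, a zinc and iron importer, by 1.11 ± 0.09. *Gpc6*, a glypican of the cell surface, rose by 0.94 ± 0.08, and *Arl6ip5*, a membrane protein that modulates glutamate transport, by 0.61 ± 0.05. Smaller rises were measured in *App*, the amyloid precursor protein (0.40 ± 0.05), *Gbas*, a mitochondrial protein also named NIPSNAP (0.35 ± 0.06), and *Efna4*, an ephrin ligand (0.10 ± 0.02). In *Efna4* only a small part of the reads carried a vote, 0.0708 votes per read in B6/Cast and 0.0213 in B6/B6 embryos. Its BAF was 0.137 in N2 heterozygotes, yet its median was 142 RPM in B6/Cast and 143 RPM in B6/B6 embryos.

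Genes of division, chromatin and ribosome assembly were also among those called. *Mzt2* ran from 20.4 through 95.8 to 137 RPM in 73 B6/B6 embryos and from 80.6 through 250.0 to 335 RPM in 81 B6/Cast embryos. In all, 77 of 81 B6/Cast embryos lay above every B6/B6 embryo, and the difference was 1.31 ± 0.03 (adjusted p = 1.69e-22). *Wdr12*, a ribosome biogenesis factor, rose by 1.26 ± 0.07, from a median of 11.9 to 33.5 RPM. *Btg2*, an antiproliferative factor, rose by 0.59 ± 0.05, *Dnajc2* by 0.55 ± 0.05, *Senp1*, a SUMO protease, by 0.45 ± 0.05, *Phf17*, a subunit of a histone acetyltransferase complex, by 0.44 ± 0.08 and *Cdc20* by 0.26 ± 0.05. *Mospd3*, a protein with a major sperm protein domain, rose by 0.45 ± 0.05 and *Ccdc75*, a coiled-coil protein, by 0.26 ± 0.06. The row of *Mir3091*, which holds the reads of *Rps21*, rose by 0.92 ± 0.14.

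Developmental and tissue-restricted genes were mostly scarce in whole embryos, where fewer cells of a type and less RNA per cell cannot be told apart. *Hopx*, the homeodomain-only cofactor of heart and stem cell programs, rose by 0.98 ± 0.09, from a median of 1.75 to 4.93 RPM, and *Irx3*, an Iroquois transcription factor of neural and limb patterning, by 0.30 ± 0.04, from 98.3 to 121 RPM. At a limit of 1 RPM in place of 5, a further 11 genes could be tested and all 11 were higher in B6/Cast embryos, beside 13.2% of all genes at that limit. They included *Grifin*, a galectin-related lens protein (1.82 ± 0.10), the coat-color gene *a*, agouti, an antagonist of the melanocortin receptor (1.35 ± 0.10), *Mesp2* (1.17 ± 0.11), the pigment cell tetraspanin *Tspan10* (1.09 ± 0.17), the sorting nexin *Snx31* (0.99 ± 0.10) and *Ern2*, an endoplasmic reticulum stress sensor of secretory epithelium (0.72 ± 0.10). The others were *D5Ertd605e* (0.90 ± 0.09), *Gm10190* (0.75 ± 0.10), *1700034H14Rik* (0.72 ± 0.10), *Tmem229b* (0.63 ± 0.09) and *Agphd1*. For *Mesp2* the alleles themselves had not passed the paired test. *Tspan10*, *D5Ertd605e* and *Snx31* reached 1 RPM only through their B6/Cast embryos, with B6/B6 means of 0.24, 0.63 and 0.92 RPM. The count of 11 therefore rests in part on the filter.

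Among the scarcest genes, *Pxt1*, *Card9*, *Ctse* and *Tspan10* had few reads in B6/B6 embryos. *Pxt1* had 118 reads in 67 B6/Cast embryos and 2 reads in 87 B6/B6 embryos, a pooled ratio of 75.2 with a 95% counting interval from 20.4 to 628. *Card9* had 238 reads in B6/Cast and 9 in B6/B6 embryos, a pooled ratio of 29.7, and was read in 61 of 70 B6/Cast embryos against 8 of 83. *Ctse*, the aspartic protease cathepsin E, had 265 and 16 reads, and was read in 46 of 65 and 14 of 86 embryos. *Tspan10* had 551 and 47 reads. Smaller ratios were found in *Hsf2bp* and *Cd1d2*. *Hsf2bp*, a meiotic partner of a heat shock factor, had 231 reads and 62 reads, while *Cd1d2* had 229 and 104. These ratios pool reads over embryos and carry no test, and the interval covers counting error only. No such excess was seen for *Tdg*, with 122 reads in B6/Cast and 185 in B6/B6 embryos (0.872 and 0.929 RPM pooled), or for *Gm9855*, with 91 and 131 reads (0.651 and 0.658 RPM).

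A low F1 BAF did not always come with a called difference in total reads, and in some of these genes the N2 alleles did not bear it out either. The 10 genes tested without a call had log2 differences between -0.14 and 0.27, with adjusted p-values from 0.0258 (*1190005I06Rik*) to 0.965 (*Hmgb2*). *Nrd1*, the metalloprotease nardilysin, had a median of 220.0 RPM in B6/Cast and 222 RPM in B6/B6 embryos and a difference of 0.00 ± 0.04, although its Cast allele was higher in the paired test (BAF 0.134, adjusted p = 4.39e-22). *Hmgb2* differed by -0.03 ± 0.07 with medians of 24.4 and 23.6 RPM, *F11r* by -0.05 ± 0.08, *Spin1* by 0.04 ± 0.07, *Aplf* by 0.04 ± 0.09, *Kcnk3* by 0.16 ± 0.07, *1190005I06Rik* by -0.14 ± 0.05 and *2700099C18Rik* by 0.27 ± 0.13. *Fam100b* and *Gm7367*, which share their reads, each differed by 0.16 ± 0.06. In B6/B6 N2 embryos none of their 6733 reads carried a vote. In N2 heterozygotes they had only 29 and 28 votes on 6643 and 6640 reads, too few for the paired test. *Spin1*, *F11r* and *Aplf* had not passed that test. *Kcnk3* and *1190005I06Rik* had mostly Cast votes in B6/B6 embryos too, so their low BAF does not show a difference between alleles. *F11r*, *Aplf* and *2700099C18Rik* were higher in the second flowcell. Their B6/B6 medians were 35.1, 11.1 and 28.2 RPM there, against 10.1, 2.51 and 1.28 RPM in the first. Their B6/Cast medians were 39.0, 6.01 and 8.07 RPM in the second, against 11.65, 3.23 and 3.60 RPM in the first. By median, *Aplf* and *2700099C18Rik* were thus higher in B6/Cast than in B6/B6 embryos in the first flowcell and lower in the second. The part of the flowcell in the results of these genes was not tested beyond the fits within each.

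A BAF sets an expectation for total reads. With each allele giving the same output in either genotype, the level in a B6/Cast embryo over that in a B6/B6 embryo follows from the BAF alone, and this predicted ratio could be set beside the fitted difference for 37 genes. The predicted median was 1.90 on the log2 scale, and the fitted median of the same genes was 0.59. The fitted difference lay more than 2 SE below the prediction in 32 genes, within 2 SE in 4 (*Hddc3*, *Mir3091*, *Gsr* and *Spin1*) and above it in 1, *Acaca* (predicted 1.00, fitted 1.27). *Hddc3* was predicted at 1.86 and measured at 1.87, *Mzt2* at 1.38 and 1.31, and *Mir3091* at 0.91 and 0.92, whereas *Got2* was predicted at 7.90 and measured at 1.88, *Mospd3* at 3.99 and 0.45, and *Gpc6* at 4.10 and 0.94. Across the 37 genes Spearman's rho of prediction and fit was 0.418, a description over genes measured in the same libraries.

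**Figure D4:**
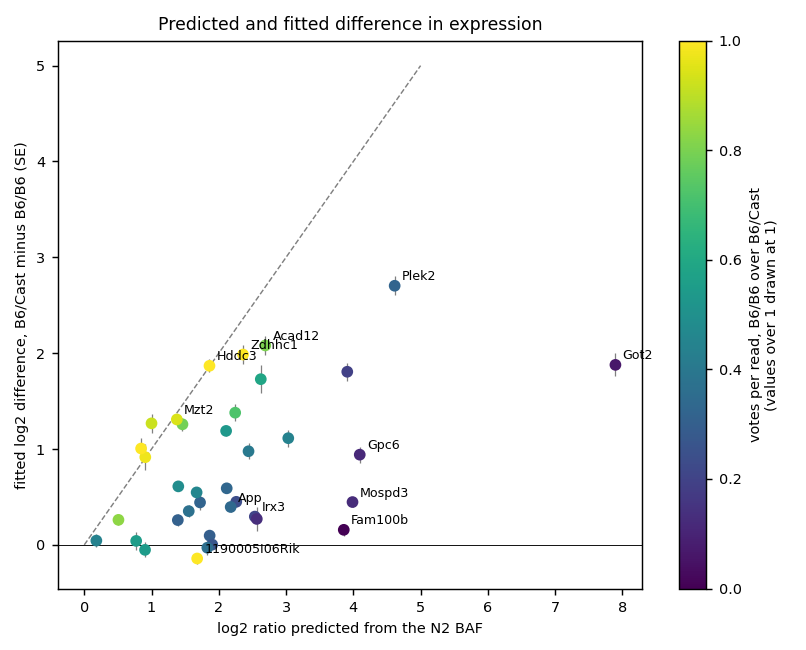
Fitted log2 difference between B6/Cast and B6/B6 N2 embryos (y axis, with SE) against the log2 ratio predicted from the N2 BAF (x axis) for 37 genes, colored by the votes per read in B6/B6 over those in B6/Cast embryos. Genes colored near 1, such as *Mzt2* and *Hddc3*, lie by the dashed line of equality, *1190005I06Rik* being an exception, and dark points such as *Got2*, *Gpc6* and *Mospd3* lie well below it. Color and distance from the line are tied by arithmetic.

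The distance from the prediction is tied by arithmetic to the share of a gene's reads that cast a vote. In 48 of the 57 genes this share was lower in B6/B6 than in B6/Cast embryos. The ratio of the shares was under 0.5 in 27 genes, 47.4%, against 0.536% of 5784 other genes with enough votes, whose median ratio was 0.998. A gene with a BAF near 0.5 and like totals must have a ratio close to that median. The contrast thus follows in part from the choice of genes. For the 10 genes with a prediction and a ratio of at least 0.75 the fitted difference minus the predicted one had a median of -0.13, with *1190005I06Rik* lowest at -1.82, and for the 22 with a ratio under 0.5 a median of -1.84. Spearman's rho between the ratio and the fitted minus predicted value was 0.863 over the 37 genes. With equal B6 votes per B6 allele in both genotypes, the log2 of the ratio nearly equals the fitted minus predicted value. The rho and the split by ratio are thus close to an identity and carry no evidence of their own.

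*Got2* had the lowest ratio among the genes called. In B6/Cast embryos 20.6 RPM carried a vote and 2.54 RPM did not, and in B6/B6 embryos 0.247 did and 4.10 did not, so the reads that could not be assigned to an allele were not fewer in embryos without a Cast allele. The share of reads with a vote was 0.877 and 0.0549. *Mospd3* had 18.5 RPM with a vote in B6/Cast and 1.52 in B6/B6 embryos, beside 29.5 and 36.7 without. *Nrd1* had 10.1 and 3.13 with a vote, beside 201 and 207 without, so its SNPs lay in a small part of its reads. *Irx3* (14.3 and 2.21 with, 105 and 97.8 without), *App* (25.9 and 6.43 with, 129 and 125 without) and *Efna4* (10.7 and 3.11 with, 131 and 136 without) had the same pattern. *Mzt2* differed, with 144 and 53.6 RPM with a vote and 94.9 and 40.9 without, both kinds higher in B6/Cast embryos, as did *Zdhhc1* (1.79 and 0.479 with, 13.5 and 2.35 without) and *Hddc3* (6.93 and 2.26 with, 38.9 and 9.45 without). Where along each transcript the reads with a vote lay was not analysed here.

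Cast votes should be rare in B6/B6 embryos, and pooled over all autosomal genes they made up 0.194% of votes there. Of 37 genes with at least 100 votes in such embryos, 15 had more than 1% Cast votes, and the median was 0.699%, above that pooled share. How many of all genes exceed 1% was not counted, so the 15 cannot be set beside a share over all genes. In *Kcnk3* 99.7% of 378 votes in B6/B6 embryos were for the Cast base, nearly the share seen in heterozygotes, and its total level did not differ past the threshold. In *1190005I06Rik* 78.9% of 1783 votes were for Cast, *Hmgb2* had 5.34% of 825, *Dnajc2* 3.07% of 2249, *Gsr* 2.67% of 3643, *Arl6ip5* 1.20% of 835, *Mospd3* 1.20% of 333 and *Grifin* 1.93% of 267. *Gbas*, named here after its values were seen, had 11.0% of 191. For *Kcnk3* and *1190005I06Rik* the low BAF was thus also read where the genotype held no Cast allele. Without the 19 genes that exceeded 1% or shared votes, the dose test called 21 of 25 genes higher with a median log2 difference of 1.11, and the paired test called 33 of 37; this alternative was chosen after seeing the data.

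The reciprocal backcrosses asked whether the dose effect or the allele fraction depended on the mother. The interaction of genotype with the mother was called in 0 of 39 genes (Benjamini-Hochberg adjusted p under 0.01 in the least squares model), beside 14 of 9733 genes in all, 0.144%. With so few genes called in all, 0 of 39 does not show that the mother had no part. At an unadjusted p under 0.05 there were 9 of the 39 genes and 747 of the 9733, so the share was larger among the 39. The largest of these interactions was in *Serinc1*, whose difference was 1.03 ± 0.29 larger on the log2 scale with an F1 mother (adjusted p = 0.136). Most embryos with an F1 mother were in the first flowcell and most with a B6 mother in the second. Removing lane took out only levels, so an interaction with the mother cannot be told apart from one with the flowcell. The BAF of heterozygous embryos differed by mother in 0 of 29 genes with enough votes (Mann-Whitney test), beside 30 of 4295 in all, 0.698%. At an unadjusted p under 0.05 it differed in 2 of the 29 and 531 of the 4295, a smaller share among the 29. In fits of either backcross alone, 28 of 39 genes were higher in B6/Cast embryos with a B6 mother, beside 10.1% of all genes, and 25 of 39 with an F1 mother, beside 7.29%, and none of the 39 was lower in either.

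The genes were spread over the genome. They lay on 18 of the 19 autosomes, with 9 of the 514 genes with enough votes on chromosome 5 (1.75%), 7 of 406 on chromosome 8 (1.72%), 5 of 316 on chromosome 17 (1.58%) and 0 of 261 on chromosome 19, beside 0.832% overall. All 52 genes with coordinates in the mm9 annotation were protein coding. Only 2 pairs had starts within 1 Mb of each other. On chromosome 7, *Mesp2* (86955613 to 86958317, plus strand) lay 532 kb from *Hddc3* (87488023 to 87490983, plus strand), and on chromosome 12, *Plek2* lay 101 kb from *Tmem229b* (80062782 to 80108614, minus strand). Exons overlapped those of another gene on the same strand in 2 cases, *a* with *Raly* and *Nrd1* with *Mir761*, and on the other strand in 12, among them *Cdc20* with *Elovl1* and *Wdr12* with *Carf*; the counting of such shared positions could not be checked by strand.

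**Figure D5:**
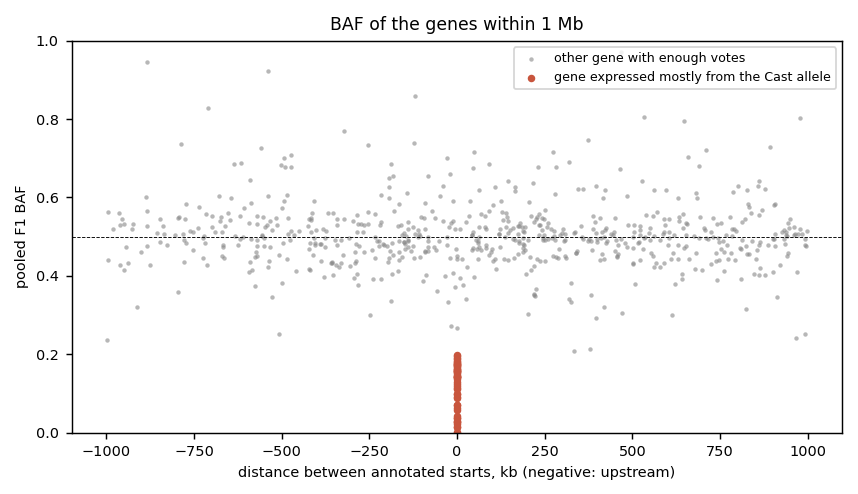
Pooled F1 BAF (y axis) of other genes with enough votes against the distance of their annotated start from that of a gene expressed mostly from the Cast allele (x axis, kb, negative values upstream), in gray, with the latter genes in red at distance 0. The 638 neighbors scatter around 0.5 at every distance, with a median of 0.5.

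The neighbors of these genes were also described. Within 1 Mb there were 638 other genes with enough votes, with a median F1 BAF of 0.5. A BAF under 0.35 was found in 3.76% of them and in 3.93% of all other genes with enough votes, and a BAF between 0.45 and 0.55 in 58.8% and 58.3%. The nearest such gene lay a median of 46.1 kb away and had a median BAF of 0.499. *Acaca* and *Tada2a*, whose starts were only 0.072 kb apart, had BAFs of 0.167 and 0.442, and *Hddc3* and *Unc45a*, 2.13 kb apart, 0.148 and 0.468. Lower neighbors did occur, as at *Hsf2bp*, where *Rrp1b* started 1.59 kb away with a BAF of 0.266, at *F11r*, where *Tstd1* had 0.271, and at *Acad12*, where *Aldh2* had 0.341.

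The genes' known functions were varied. Of 21 gene lists compiled by pathway or by name, 11 held none of them, including developmental signaling with 63 genes, ubiquitin conjugation with 50 and splicing with 44. The other 10 held few. Gene models without a gene name held 6 of 466 (*1190005I06Rik*, *Gm9855*, *Gm7367*, *Gm10190*, *2700099C18Rik* and *1700034H14Rik*). DNA repair held 1 of 59 (*Tdg*), centrosome and spindle 1 of 43 (*Mzt2*), developmental transcription factors 1 of 59 (*Irx3*), lysosomal genes 1 of 39 (*Ctse*), sterol and fatty acid synthesis 1 of 26 (*Acaca*) and solute carriers 1 of 98 (*Slc39a14*). Genes named Ccdc held 1 of 52, Fam 1 of 96 and Tmem 1 of 91. The share over all 6853 genes was 0.832%, and counts this small carry no test here. The lists are not complete, since *Aplf*, *Mesp2* and *Hopx*, described above by functions of this kind, are on none of them.

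The mirrored rule, with B6 and Cast votes exchanged, found 72 genes expressed mostly from the B6 allele. Of the 65 that passed 5 RPM, 55 were lower in B6/Cast than in B6/B6 embryos and 1 was higher, with a median log2 difference of -0.55, the same size as the 0.55 of the genes expressed mostly from Cast. The paired test called B6 higher in 61 of 72. Both sets were chosen in F1 and measured in N2, and apart from that 1 gene every dose effect called went with the favored allele. In the Cast set, some of the genes called had reached 5 RPM only through their B6/Cast embryos, as named above.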

How the data were processed

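Single whole embryos had been profiled by 3SEQ. The authors trimmed poly(A) from the reads, shortened the HiSeq F1 reads to the length of the GAIIx reads, mapped them by Bowtie2 against mm9, the B6 reference, and against a Cast version of it made from published SNPs, and deposited raw read counts per RefSeq gene. Allele votes were deposited as estimated counts per gene and allele, each read over n SNPs giving 1/n of a vote per SNP, at SNPs at least 50 bases from an annotated Cast indel. N2 genotypes (B6/B6 or B6/Cast) were called by the authors from the votes and smoothed along chromosomes. Columns without a group or genotype (14 of 168 in the N2 tables) were not used.

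RPM was the count divided by all reads on genes, scaled to 1000000. BAF was pooled over embryos. N2 alleles were compared by a paired test of votes scaled to depth (genes with 20 votes per backcross and votes in 10 embryos, Bonferroni). Dose effects were tested by rank-sum on log2(RPM + 1) at a mean of 5 RPM, less lane, sex (by *Xist* at 8 RPM), somite number (missing in 7, set to the litter mean) and 15 principal components that replaced the study's PEER factors, with Benjamini-Hochberg adjustment, and sizes came from least squares. Python 3.11.15 with numpy 2.4.6, scipy 1.17.1 and pandas 2.3.3 was used, and edgeR 4.0.16 (quasi-likelihood) and DESeq2 1.42.0 (size factors) in R 4.3.3 served as alternatives. The statistics were tested on simulated data. Fold changes on the log2(RPM + 1) scale understate those of low genes and move with the pseudocount. Alternatives varied the covariates, scaling, filter, pseudocount, test, adjustment, backcross, flowcell and depth. Embryos of a litter are not independent, so p-values are those of embryos. Depth set by reads per embryo limits scarce genes, and counting intervals cover counting error only.

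Genes and lists were chosen with earlier results of these data known. Named were the genes with the lowest BAF, most votes, largest dose effects or highest level without a call, those not called by allele, with Cast votes in B6/B6 embryos, near another such gene, on a list, or next to the BAF limit; the rest were added for completeness. Coordinates came from the GENCODE mm9 annotation, matched by symbol, chromosome and strand for 52 of 57 genes.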

Additional observations from a re-analysis of the deposited data

Results flagged for a closer look

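Single F1 embryos lay apart from the other 7 of their cross in 13 of 110 gene-by-cross groups, judged by the gap to the nearest embryo over the range of the group. The cutoff passes about 1 in 20 groups of normally distributed values of equal spread. Low BAFs on unequal numbers of votes are not such values, so 13 of 110 cannot be read as an excess. These groups covered 11 genes.

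Cast × B6 embryo 1-3 accounted for 3 of them. Its BAF of *Serinc1* was 0.636 on 77 votes, while the other embryos ran from 0.0446 to 0.251 with a median of 1008 votes, and its level was 7.40 RPM against a median of 88.5 RPM. Its BAF of *F11r* was 0.714 on 7 votes, and that of *Hddc3* was 0.5 on 10 votes.

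Among B6 × Cast embryos, embryo 3-4 had a BAF of 0.275 for *Acaca* (1123 votes) and 0.303 for *F11r* (76 votes). Embryo 3-1 had 0.164 for *Hmgb2* (67 votes) and 0.069 for *Phf17* (116 votes, lower than the other embryos). Embryo 5-6 had 0.357 for *Aplf* (56 votes). Among Cast × B6 embryos, embryo 1-1 had 0.235 for *Btg2* (221 votes) and 0.119 for *Plek2* (227 votes). Embryo 2-3 had 0.291 for *Wdr12* (206 votes) and 0.0179 for *Ctse* (56 votes), where the others were at 0, and embryo 2-2 had 0.0838 for *Hmgb2* (191 votes).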

How the results depend on the processing

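The number of genes chosen followed the BAF limit, with 29 genes at 0.15 and 95 at 0.25 in place of 57 at 0.20; minimums of 100 and 400 votes gave 71 and 43, and the mean of the embryos' BAFs gave 55 genes, 51 of them shared. The paired test called 33 to 53 genes over its alternatives, and the dose test 21 to 40. The median log2 dose effect was 0.74 with genes down to 1 RPM (50 tested) and 1.11 without the 19 genes in doubt (25 tested), the latter chosen after seeing the data, as were fits of earlier and later embryos. Of the 29 genes called in the dose test, 22 passed in each of the 19 alternatives that could test them (*Hopx* fell under 5 RPM in the first flowcell), 7 missed the threshold in some (*Efna4*, *Ccdc75*, *Gbas*, *App*, *Phf17*, *Mospd3* and *Cdc20*) and none changed sign. *1190005I06Rik* was called lower (-0.24) with lane, sex and somite number only, and (-0.20) with 5 principal components.

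Signs changed only in genes that were not called, and the cause was not tested. Without covariates the log2 differences were 0.055 for *F11r*, -0.036 for *Nrd1*, -0.17 for *Aplf* and -0.067 for *Spin1*. *Nrd1* was also below 0 with 5 components (-0.022), TMM factors (-0.00044), DESeq2 size factors (-0.0048), a limit of 1 RPM (-0.0028), a pseudocount of 4 RPM (-0.0083), B6 mothers (-0.024), the second flowcell (-0.026) and later embryos (-0.076). *Aplf* was below 0 with lane, sex and somite number only (-0.072), a pseudocount of 4 RPM (-0.021), edgeR (-0.10), F1 mothers (-0.068), the second flowcell (-0.045), embryos of at least 1000000 reads (-0.019) and earlier embryos (-0.088). *Hmgb2* was above 0 with litter in place of lane (0.044), with B6 mothers (0.0057) and in later embryos (0.014). *F11r* was above 0 with F1 mothers (0.32), in the first flowcell (0.21) and at 1000000 reads (0.016). *Kcnk3* was at -0.0049 in the first flowcell and *2700099C18Rik* at -0.39 in the second.

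Embryo codes are not shared between groups, so no block by code was fitted between genotypes; depth limits the genes under 5 RPM, and mapping differences between the alleles could not be measured from these tables.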
